A study of Mus musculus with 4 samples.

Results

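The proteasome genes described here are the protein-coding genes of the table whose symbols begin with Psma, Psmb, Psmc, Psmd, Psme, Psmf or Psmg and a number, without the inducible subunits Psmb8, Psmb9 and Psmb10. The rule gave 47 genes of the 18200 in the table, of which 15 belong to the 20S core, 20 to the 19S cap, 5 to the activators and 5 to the 20S assembly chaperones and an inhibitor. The remaining 2, Psmc3ip and Psme3ip1, carry the name of a subunit their protein binds and encode no subunit. Expression passed the filter of a mean of at least 1 FPKM (fragments scaled to transcript length and library depth) in 46 of the 47, and Psmb11 did not.

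The proteasome is the cell's main protease for proteins tagged with ubiquitin. Its 20S core is a barrel of stacked rings, in which alpha subunits form the gated entrance and beta subunits hold the proteolytic sites, and its 19S cap binds ubiquitin chains, removes them, unfolds the substrate with a ring of ATPases and feeds it into the barrel. Other activators, the PA28 proteins and PA200, open the same gate without ATPases, and cells exposed to interferon replace the catalytic beta subunits with Psmb8, Psmb9 and Psmb10. Because subunits are built into the particle in fixed proportions, the genes of one particle are usually made at related rates.

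RNA from polysomes (messenger RNA loaded with ribosomes) of mouse ADSCs, which the labels give as the cell type with genotype WT in all libraries, was sequenced in 4 libraries. In 2 of them the cells are labelled Scrambled, the control, and in 2 IFIT1 knockdown, which the design text gives as made with sh-Ifit1. Replicate 1 of each group is labelled batch 1 and replicate 2 batch 2, and what the batches were is not stated. No source used here says whether replicates were separate cultures, so a p-value here reflects the scatter of these libraries alone, and that scatter can be technical. Strain, age and dose are not given in the labels. Only polysomal RNA was measured, so the amount of a messenger RNA and its loading with ribosomes cannot be told apart, and in a bulk sample neither can fewer cells of a type and less RNA per cell.

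The libraries were of similar depth, 32197315 to 39449375 fragments as implied by the FPKM values. Ifit1, the target of the knockdown, was listed at 1.93 and 1.91 FPKM in the scrambled-labelled libraries and at 13.9 and 14.8 FPKM in the knockdown-labelled ones, 7.47-fold higher where the label gives the lower level, so directions below refer to the libraries as labelled. Of 12 stromal markers 8 passed the filter, 7 of these were higher in the knockdown-labelled libraries, and their summed level over the list was 53.05 and 54.57 FPKM against 108.2 and 106.2 FPKM. Among the defining stromal genes Nt5e stayed at or below 0.0347 FPKM and Pdgfra at or below 0.121 FPKM. Pecam1, Tek, Epcam and Cdh1, which mark endothelium and epithelium, were at or below 0.0172 FPKM. Of the other epithelial markers Krt19 stood at 166 and 161 FPKM against 91.4 and 92.2 FPKM, while Krt8 went from 0.275 and 0.283 FPKM to 2.46 and 2.65 FPKM and Krt18 from 0.466 and 0.475 FPKM to 2.84 and 2.94 FPKM. Among fat cell markers Pparg (3.02 and 3.15 FPKM against 0.961 and 0.998 FPKM) and Fabp4 (2.62 and 2.51 against 1.47 and 1.47 FPKM) were lower and Cebpa (2.62 and 2.57 against 4.93 and 4.92 FPKM) higher. Of 7 leukocyte markers 2 were listed and 1 passed the filter. That was Cd14, which was higher (5.16 and 5.14 against 5.85 and 5.99 FPKM). Cd68 stayed below the filter, at 0.399 and 0.349 against 0.346 and 0.399 FPKM. The part of these cell markers in the results below was not tested. Changes were common across the table, with 6009 of 8750 tested genes past a Benjamini-Hochberg adjusted p of 0.05 in limma (68.7%), 27.4% higher and 41.2% lower in the knockdown-labelled libraries. The median log2 change of all tested genes was -0.02, and it became 0.15 when each library was centred on its own median.

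Most cap genes were lower in the knockdown-labelled libraries, while the core genes went both ways with the FPKM as deposited. Of the 46 tested proteasome genes 25 were lower (54.3%, against 41.2% of all genes), 6 were higher (13.0%, against 27.4%) and 15 did not pass. The cap gave 13 lower, 1 higher and 6 not past, with a median log2 change of -0.63. In the core 6 were lower, 4 higher and 4 not past, with a median log2 change of -0.07 that became 0.10 after median centring. The core's split depended on the scaling: quantile normalization gave 7 lower and 1 higher (median -0.27), and taking out the trend with transcript length gave 11 lower and 1 higher (median -0.34). The activators gave 3 lower and 2 not past, with a median of -0.16 that became 0.01 after median centring. It was -0.27 after quantile normalization and -0.26 with the length trend taken out. Within batch 1 the median was -0.68 for the cap and -0.12 for the core, and within batch 2 it was -0.54 and -0.02. Replicate differences of the groups ran in opposite directions across genes (r = -0.83), so pairing by batch rests on the labels alone. Both groups' libraries were free of overlap for 33 of the 46 genes (71.7%, against 74.5% of all tested genes, 44.4% with the knockdown-labelled libraries below and 30.1% above). Median centring gave 22 lower and 9 higher proteasome genes (34.7% and 32.4% of all genes), and quantile normalization 26 and 3 (38.4% and 28.8%). These are counts and medians over a list chosen with the results known, and no test of the list was made.

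**Figure D1:**
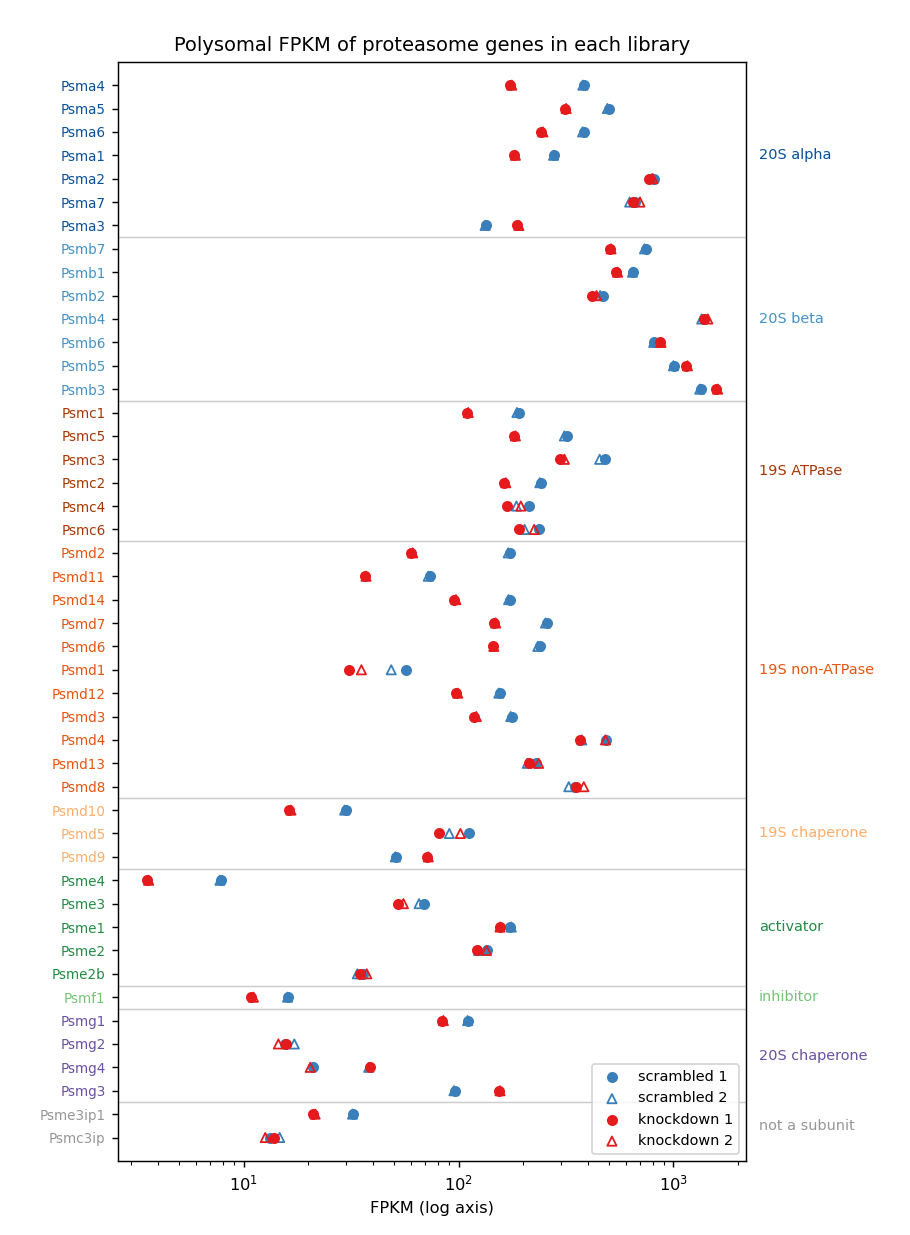
FPKM of each tested proteasome gene on a log axis, 1 row per gene grouped by its place in the particle and ordered within groups by log2 change, with circles for replicate 1, triangles for replicate 2, blue for scrambled and red for knockdown libraries. Replicates lie close together for most genes, and core genes reach the highest levels, 1608 FPKM for Psmb3.

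The alpha ring holds 7 genes, of which 4 were lower in the knockdown-labelled libraries, 1 was higher and 2 did not pass. Psma4, whose counterpart in yeast helps close the gate of the barrel, stood at 385 and 379 FPKM in the scrambled-labelled libraries and at 174 and 177 FPKM in the knockdown-labelled ones, 2.18-fold lower (log2 change -1.12 ± 0.02 SE, limma adjusted p = 0.00016). It had the largest decrease of the core genes. Psma5 was at 504 and 493 FPKM against 314 and 317 FPKM (log2 change -0.66 ± 0.02, limma adjusted p = 0.0002), and Psma6 at 383 and 378 FPKM against 243 and 247 FPKM (log2 change -0.63 ± 0.02, limma adjusted p = 0.0002). Neither gene's groups overlapped. Psma1 had a log2 change of -0.61 with the same adjusted p. Psma3, another alpha subunit, moved the other way, from 134 and 133 FPKM to 187 and 191 FPKM, 1.42-fold higher (log2 change 0.50 ± 0.02, limma adjusted p = 0.0003). It was the only alpha gene past the threshold in that direction, and it stayed past it in every alternative. Psma2 and Psma7 had log2 changes of -0.03 (limma adjusted p = 0.52) and 0.06 (limma adjusted p = 0.47), and their groups overlapped. With these directions the summed level of the alpha genes went from 3164 and 3079 FPKM to 2519 and 2617 FPKM.

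The beta ring was nearer to even with the FPKM as deposited. Summed over its 7 tested genes it stood at 6417 and 6329 FPKM in the scrambled-labelled libraries and at 6430 and 6596 FPKM in the knockdown-labelled ones. Of its 7 genes, 3 were higher, 2 lower and 2 not past, and with the trend with transcript length taken out 0 were higher and 6 lower. The catalytic subunits did not share a direction with the FPKM as deposited. Psmb7, which carries the trypsin-like site, stood at 747 and 734 FPKM against 506 and 513 FPKM, 1.45-fold lower (log2 change -0.54 ± 0.02, limma adjusted p = 0.00026). Psmb5, which carries the chymotrypsin-like site that proteasome inhibitor drugs bind, stood at 1007 and 1001 FPKM against 1141 and 1163 FPKM, 1.15-fold higher (log2 change 0.20 ± 0.02, limma adjusted p = 0.0035). Its log2 change became 0.01 after quantile normalization (limma adjusted p = 0.86) and -0.08 once the trend with transcript length was taken out (limma adjusted p = 0.049). Psmb6, with the caspase-like site, stood at 809 and 810.1 FPKM against 864 and 876 FPKM, 1.07-fold higher (log2 change 0.10 ± 0.02, limma adjusted p = 0.016). The Psmb6 call was lost with batch as a block (limma adjusted p = 0.11) and without any 1 of the 4 libraries (limma adjusted p from 0.061 to 0.14). With a library left out, here and below, the lone library of its group is assumed to vary like those of the other group. The log2 change of Psmb6 was -0.03 after quantile normalization and -0.11 with the length trend taken out (limma adjusted p = 0.016). Psmb7 then had -0.77 (limma adjusted p = 0.00023), so under that setting all 3 catalytic genes were lower. RefSeq lists pseudogenes of Psmb5, Psmb6, Psmb7 and Psma5, and the sources used here do not say how shared reads were counted.

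With the FPKM as deposited the noncatalytic beta genes had log2 changes from -0.25 to 0.26, and the scaling moved them. Psmb3 stood at 1338 and 1327 FPKM against 1576 and 1608 FPKM (log2 change 0.26 ± 0.02, limma adjusted p = 0.0018). That difference was not past the threshold after quantile normalization (log2 change 0.15, limma adjusted p = 0.17), and the sign turned with the length trend taken out (-0.06, limma adjusted p = 0.089). Psmb1 had a log2 change of -0.25 (limma adjusted p = 0.0018), which median centring took to an adjusted p of 0.22. Its log2 change was -0.46 after quantile normalization (limma adjusted p = 0.0018) and -0.48 with the length trend taken out (limma adjusted p = 0.00045). Psmb2 (log2 change -0.11, limma adjusted p = 0.082) and Psmb4 (0.04, limma adjusted p = 0.41) did not pass. Psmb2 passed as lower after quantile normalization (-0.31, limma adjusted p = 0.019) and with the length trend taken out (-0.39, limma adjusted p = 0.0033). The length adjustment took Psmb4 to -0.21 (limma adjusted p = 0.014), and median centring took it to 0.22 (limma adjusted p = 0.027). Psmb11, which replaces Psmb5 in the thymus, had 1, 1, 0 and 1 fragments in the 4 libraries and was not tested.

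**Figure D2:**
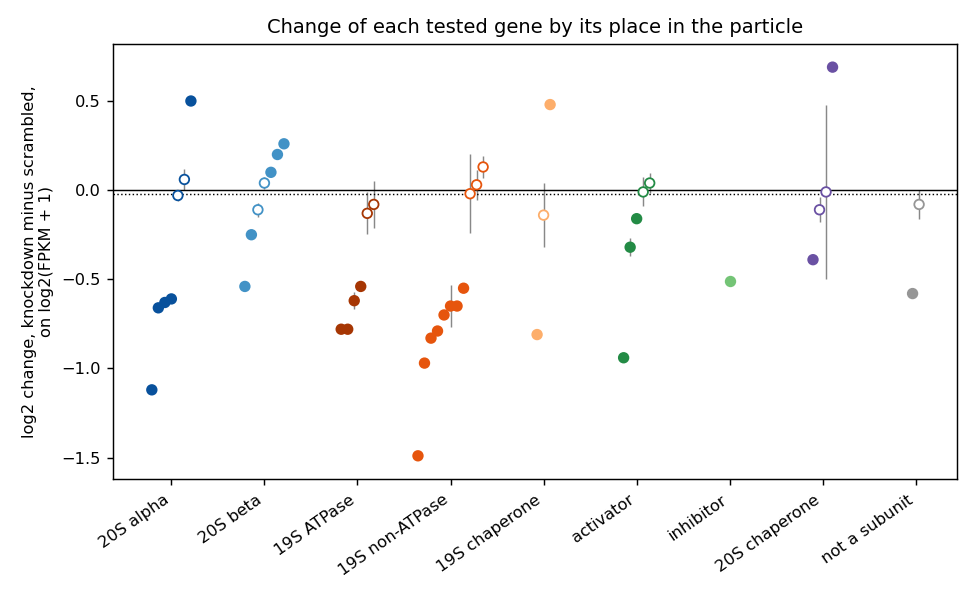
Log2 change (knockdown minus scrambled, on log2(FPKM + 1)) of each tested proteasome gene, by its place in the particle, with bars of 1 SE, filled points past an adjusted p of 0.05 and a dotted line at the median of all tested genes, -0.02. The points past the threshold are all below 0 among the 19S ATPases and non-ATPases, and on both sides of 0 among the alpha and beta genes.

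The inducible counterparts, outside the rule, were all higher in the knockdown-labelled libraries. Psmb8 rose from 4.14 and 4.08 FPKM to 52.6 and 53.9 FPKM, Psmb9 from 0.388 and 0.399 FPKM to 6.29 and 6.41 FPKM, and Psmb10 from 45.1 and 44.2 FPKM to 72.6 and 72.4 FPKM (limma adjusted p of 0.00016, 0.00016 and 0.00018). Set against the constitutive subunit each replaces, Psmb8 was 0.411% and 0.407% of the Psmb5 level and became 4.61% and 4.63%. Psmb9 was 0.048% and 0.0493% of the Psmb6 level and became 0.728% and 0.732%, and Psmb10 was 6.04% and 6.02% of the Psmb7 level and became 14.3% and 14.1%. The constitutive subunit was still the more abundant of each pair in all 4 libraries, per length of transcript.

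The ATPase ring, which unfolds the substrate, is built from the 6 Psmc genes, and 4 were lower in the knockdown-labelled libraries. Psmc1 stood at 191 and 187 FPKM against 109 and 111 FPKM (log2 change -0.78 ± 0.02, limma adjusted p = 0.00017). Psmc5 stood at 319 and 311 FPKM against 182 and 184 FPKM (log2 change -0.78 ± 0.02, limma adjusted p = 0.00018). Both were 1.72-fold lower, and no library of one group reached the other. Psmc3 went from 483 and 454 FPKM to 298 and 311 FPKM (log2 change -0.62 ± 0.05, limma adjusted p = 0.0015), and Psmc2 from 243 and 239 FPKM to 163 and 166 FPKM (log2 change -0.54 ± 0.02, limma adjusted p = 0.00026). For the other ATPases the groups overlapped. Psmc4 stood at 213 and 186 FPKM against 169 and 195 FPKM (log2 change -0.13 ± 0.12, limma adjusted p = 0.44). Psmc6 stood at 236 and 203 FPKM against 191 and 225 FPKM (log2 change -0.08 ± 0.13, limma adjusted p = 0.71). In both, scrambled 1 and knockdown 2 were the higher libraries.

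Among the 11 non-ATPase subunits of the cap 8 were lower and 3 did not pass. Psmd2, a scaffold at which shuttle factors and the deubiquitinase Usp14 dock, stood at 173 and 170.3 FPKM in the scrambled-labelled libraries and at 60.0 and 61.2 FPKM in the knockdown-labelled ones, 2.83-fold lower (log2 change -1.49 ± 0.02, limma adjusted p = 0.00016). This was the largest decrease among the 46 tested genes, -1.51 within batch 1 and -1.46 within batch 2. Psmd11, a clamp between core and cap, went from 73.4 and 72.3 FPKM to 36.6 and 37.1 FPKM, 1.98-fold lower (log2 change -0.97 ± 0.02, limma adjusted p = 0.00016). Psmd14, the metalloprotease that cuts ubiquitin chains off the substrate, went from 173 and 171 FPKM to 95.4 and 97.2 FPKM, 1.78-fold lower (log2 change -0.83 ± 0.02, limma adjusted p = 0.00016). Its partner Psmd7 had a log2 change of -0.79 (limma adjusted p = 0.00017), and the scaffold genes Psmd6, Psmd12 and Psmd3 had -0.70, -0.65 and -0.55, all past the threshold.

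The other non-ATPase genes rest on more variable libraries. Psmd1, the second large scaffold, stood at 56.8 and 48.6 FPKM against 30.9 and 35.3 FPKM (log2 change -0.65 ± 0.12, limma adjusted p = 0.017). Its call was lost with batch as a block (limma adjusted p = 0.061), without knockdown 1 (0.096) and without knockdown 2 (0.06). Psmd4, a ubiquitin receptor, stood at 488 and 375 FPKM against 369 and 483 FPKM (log2 change -0.02 ± 0.22, limma adjusted p = 0.99), so its groups covered nearly the same range. Psmd13 stood at 229.7 and 209 FPKM against 212 and 236 FPKM (log2 change 0.03 ± 0.08, limma adjusted p = 0.90). Psmd8 stood at 348 and 326 FPKM against 353 and 383 FPKM (log2 change 0.13 ± 0.06, limma adjusted p = 0.19), and it passed after median centring (limma adjusted p = 0.029).

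The chaperones that assemble the cap were divided. Psmd10, also known as gankyrin, stood at 30.0 and 29.5 FPKM against 16.3 and 16.6 FPKM (log2 change -0.81 ± 0.02, limma adjusted p = 0.00016). Psmd9 stood at 51.2 and 50.8 FPKM against 71.2 and 72.3 FPKM, 1.41-fold higher (log2 change 0.48 ± 0.02, limma adjusted p = 0.00026). Psmd5 stood at 112 and 90.6 FPKM against 81.5 and 102 FPKM (log2 change -0.14 ± 0.18, limma adjusted p = 0.61), with overlapping groups. Without these chaperones, 12 of the 17 structural cap genes were lower (70.6%), 0 were higher and 5 did not pass, with a median log2 change of -0.65. Of all tested genes 41.2% were lower and 27.4% higher. The share called in either direction, 70.6%, was near the 68.7% of all tested genes. The structural cap genes with a positive log2 change were Psmd8 and Psmd13.

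Promoters of 5 genes are shown because one short motif was counted more often in cap than in core promoters, a difference that was not tested. The cap genes shown were picked among lower genes with that motif and the core genes among catalytic genes without it. Their contrast is therefore by choice, and the lower cap genes Psmc5, Psmd1, Psmd10 and Psmd14 had no match to it. The letters are the 250 bases upstream of the RefSeq start on the gene's strand, in build GRCm38.p6, chosen after the values were seen: the cap genes Psmd2 (chr16:20651402-20651651, plus strand), Psmd11 (chr11:80428365-80428614, plus strand) and Psmd6 (chr14:14120946-14121195, minus strand), and the catalytic core genes Psmb5 (chr14:54617996-54618245, minus strand) and Psmb6 (chr11:70525107-70525356, plus strand). Capitals mark matches to CCGGAAG, a sequence that ETS factors bind, on either strand (CTTCCGG on the other), or to TGACNNNGC, the core of the antioxidant response element that Nfe2l1 and Nfe2l2 bind.
Psmd2: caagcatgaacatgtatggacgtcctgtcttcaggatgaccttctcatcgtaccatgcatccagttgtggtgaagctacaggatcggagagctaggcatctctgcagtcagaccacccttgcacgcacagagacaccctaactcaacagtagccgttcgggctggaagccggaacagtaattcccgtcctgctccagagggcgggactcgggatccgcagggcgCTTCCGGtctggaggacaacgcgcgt
Psmd11: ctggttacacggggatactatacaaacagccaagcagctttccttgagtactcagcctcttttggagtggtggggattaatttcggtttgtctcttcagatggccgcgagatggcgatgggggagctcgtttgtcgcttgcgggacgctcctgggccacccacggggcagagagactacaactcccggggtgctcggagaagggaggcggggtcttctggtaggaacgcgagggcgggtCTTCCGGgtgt
Psmd6: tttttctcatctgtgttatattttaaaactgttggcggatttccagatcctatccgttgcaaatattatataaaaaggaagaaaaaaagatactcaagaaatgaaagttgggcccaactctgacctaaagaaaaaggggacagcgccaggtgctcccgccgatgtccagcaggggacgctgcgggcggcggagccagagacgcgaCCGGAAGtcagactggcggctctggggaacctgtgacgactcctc
Psmb5: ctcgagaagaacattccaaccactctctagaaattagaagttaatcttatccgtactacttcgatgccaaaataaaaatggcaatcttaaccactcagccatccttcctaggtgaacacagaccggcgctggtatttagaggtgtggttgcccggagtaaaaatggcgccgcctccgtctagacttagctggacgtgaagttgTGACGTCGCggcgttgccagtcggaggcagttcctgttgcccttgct
Psmb6: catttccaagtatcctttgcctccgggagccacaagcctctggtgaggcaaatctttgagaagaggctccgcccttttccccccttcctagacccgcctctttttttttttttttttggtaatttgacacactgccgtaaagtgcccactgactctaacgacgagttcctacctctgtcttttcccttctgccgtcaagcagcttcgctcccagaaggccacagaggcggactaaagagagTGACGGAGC

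The table held promoters for 40 of the 47 genes, 44 promoters in all because some genes have more than 1 start. CCGGAAG was found on either strand in 14 of the 44 (31.8%), against 1405 of 9002 promoters of tested genes (15.6%) and 6.91% of all 32851 promoters of the table. It was in 9 of 18 cap promoters (50.0%) and in 1 of 13 core promoters (7.69%). By call, it was in 11 of the 23 promoters of lower proteasome genes (47.8%), which belong to 20 genes, and in 0 of the 6 promoters of higher ones. TGACNNNGC had the opposite split, 1 of 23 (4.35%) and 3 of 6 (50.0%). Those 3 were Psmb5, Psmb6 and Psmd9, and the calls of Psmb5 and Psmb6 did not hold in every alternative. With the length trend taken out both were called lower (log2 change -0.08 and -0.11, limma adjusted p of 0.049 and 0.016). In promoters of proteasome genes not past the threshold, CCGGAAG was in 3 of 14 (21.4%) and TGACNNNGC in 1 of 14 (7.14%). Of the 6 higher genes 4 were core genes, so the splits by call and by core and cap overlap. By call, CCAAT was in 8 of 23 (34.8%) and 2 of 6 (33.3%). No split by call was made over all tested genes, so the shares by call have no background beside them. CCAAT, the site of the NF-Y factor, was in 7 of 13 core promoters (53.8%) and 5 of 18 cap promoters (27.8%), against 36.6% for tested genes. TGACNNNGC was in 5 of the 44 (11.4%), against 11.8%. A short form of the interferon-stimulated response element, GAAA then any 2 bases then GAAA, was in 3 (6.82%), against 2.44%, in 0 of the 23 promoters of lower and 2 of the 6 of higher proteasome genes, and in 0 of the 3 promoters of Psmb8, Psmb9 and Psmb10. No match in these promoters overlapped a match to another motif. A match describes these letters only, and binding was not measured.

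Among the activators other than the cap, 3 genes were lower and 2 did not pass. Psme4, which encodes PA200, stood at 7.82 and 7.75 FPKM against 3.54 and 3.61 FPKM, 2.18-fold lower (log2 change -0.94 ± 0.02, limma adjusted p = 0.00016). Psme1, a subunit of the interferon-inducible PA28 ring, stood at 173 and 176 FPKM against 156 and 156 FPKM (log2 change -0.16 ± 0.02, limma adjusted p = 0.0041). That call was lost after median centring (log2 change 0.01, limma adjusted p = 0.80), with batch as a block (0.051), without scrambled 1 (0.052) and without scrambled 2 (0.066). Psme1 stayed lower after quantile normalization (log2 change -0.27, limma adjusted p = 0.0037) and with the length trend taken out (-0.41, limma adjusted p = 0.00045). Psme2, its partner in the ring, stood at 135 and 124 FPKM against 122 and 135 FPKM (log2 change -0.01 ± 0.08, limma adjusted p = 0.99). The near-identical copy Psme2b stood at 36.0 and 33.8 FPKM against 34.6 and 37.4 FPKM (log2 change 0.04 ± 0.06, limma adjusted p = 0.63). The groups overlapped for both copies, and their reads may be split between them. Psme3, the nuclear PA28 gamma, went from 69.3 and 65.5 FPKM to 52.0 and 55.4 FPKM (log2 change -0.32 ± 0.05, limma adjusted p = 0.012). It did not pass after median centring (limma adjusted p = 0.13), with batch as a block (0.055), with the length trend taken out (0.22), without scrambled 1 (0.057) and without knockdown 1 (0.064).

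The genes that build or restrain the core gave 2 lower, 1 higher and 2 not past. Psmg3, which works with Psmg4 on the alpha ring, rose from 96.3 and 95.2 FPKM to 154 and 156 FPKM, 1.62-fold higher (log2 change 0.69 ± 0.02, limma adjusted p = 0.00017), the largest increase among the 46 genes. Psmg4 was listed at 21.1 and 38.2 FPKM against 38.7 and 20.4 FPKM (log2 change -0.01 ± 0.49, limma adjusted p = 0.99), from 377, 827, 845 and 410 fragments. The libraries of each group differed from each other more than the groups did. Psmg1, a member of the other chaperone pair, fell from 111 and 110.2 FPKM to 83.5 and 85.0 FPKM (log2 change -0.39 ± 0.02, limma adjusted p = 0.00047). Its partner Psmg2 stood at 15.6 and 17.2 FPKM against 15.7 and 14.5 FPKM (log2 change -0.11 ± 0.07, limma adjusted p = 0.31). Psmf1, the inhibitor PI31, fell from 16.1 and 16.0 FPKM to 10.8 and 11.1 FPKM (log2 change -0.51 ± 0.02, limma adjusted p = 0.00024). Of the genes named for binding, Psme3ip1 fell from 32.3 and 32.1 FPKM to 21.1 and 21.5 FPKM (log2 change -0.58, limma adjusted p = 0.00022), and Psmc3ip had a log2 change of -0.08 (limma adjusted p = 0.49).

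The core held more FPKM than the cap in every library, and the ratio differed between the groups. Summed over tested members, the core stood at 9581 and 9408 FPKM in the scrambled-labelled libraries and at 8950 and 9214 FPKM in the knockdown-labelled ones. The cap stood at 4252 and 3941 FPKM against 2946 and 3230 FPKM. The ratio of core to cap was therefore 2.25 and 2.39 against 3.04 and 2.85, and without the cap's chaperones 2.36 and 2.50 against 3.22 and 3.03. Within the core, alpha genes summed to 0.493 and 0.487 of the beta genes in the scrambled-labelled libraries and to 0.392 and 0.397 in the knockdown-labelled ones. A ratio within a library is free of a factor common to all its genes, and it shows unequal change, not which side changed. It is not free of a trend with transcript length, and the median length was 1080 bases for the core and 1617 for the cap. With that trend taken out the median log2 changes of core and cap were -0.34 and -0.66, against -0.07 and -0.63 before. As a share of all FPKM, the 46 genes made up 2.43% and 2.28% against 1.80% and 1.93%, in libraries whose FPKM sums were 598188.1 and 616503.9 against 701936.1 and 680137.1. With 2 libraries a group, an exact two-sided permutation test of a single value cannot go below p = 0.333.

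**Figure D3:**
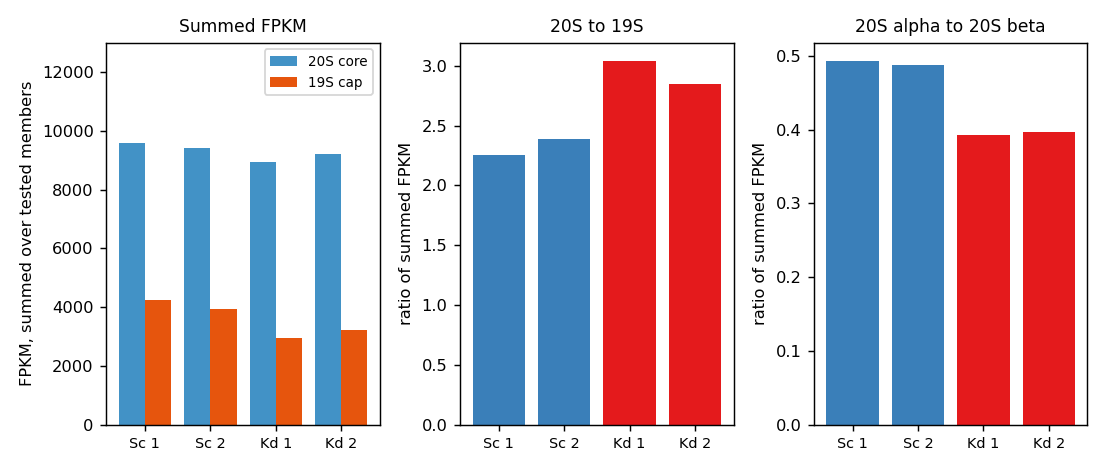
Left, FPKM summed over the tested genes of the 20S core (blue) and the 19S cap (orange) in each library. Middle and right, the ratio of core to cap and of alpha to beta genes by library, blue for scrambled (Sc) and red for knockdown (Kd), with core to cap at 2.25 and 2.39 against 3.04 and 2.85 and alpha to beta at 0.493 and 0.487 against 0.392 and 0.397.

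With the FPKM as deposited, levels within each particle also spread further apart, and so did those of all tested genes. Over all tested genes the SD of log2 level was 2.15 and 2.15 in the scrambled-labelled libraries and 2.21 and 2.20 in the knockdown-labelled ones. The SD was not computed under other scalings. The SD of log2 level over the core genes was 0.91 and 0.91 in the scrambled-labelled libraries and 1.09 and 1.10 in the knockdown-labelled ones, and over the cap genes 1.05 and 1.04 against 1.15 and 1.19. The median core gene stood at 657 and 635 FPKM against 523 and 531 FPKM, and the median cap gene at 202 and 187 FPKM against 131 and 133 FPKM.

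Transcript length moved with the changes across the table. Across 8693 tested genes the log2 change and the length implied by the FPKM had a Spearman rho of -0.39, as a description across genes, which share libraries and are not replicates. The median length was 1080 bases for the core, 1617 for the cap, 1066 for the activators and 3103 for all tested genes. With the trend taken out, the core had a median log2 change of -0.34 with 11 lower and 1 higher, and the cap -0.66 with 13 lower and 1 higher. Over all 8693 genes that adjustment gave 36.7% lower and 31.6% higher. Psma3 and Psmd2 were of the same length, 3325 bases, with log2 changes of 0.50 and -1.49. This pair was picked after the values were seen, and a single pair does not describe the trend across genes.

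**Figure D4:**
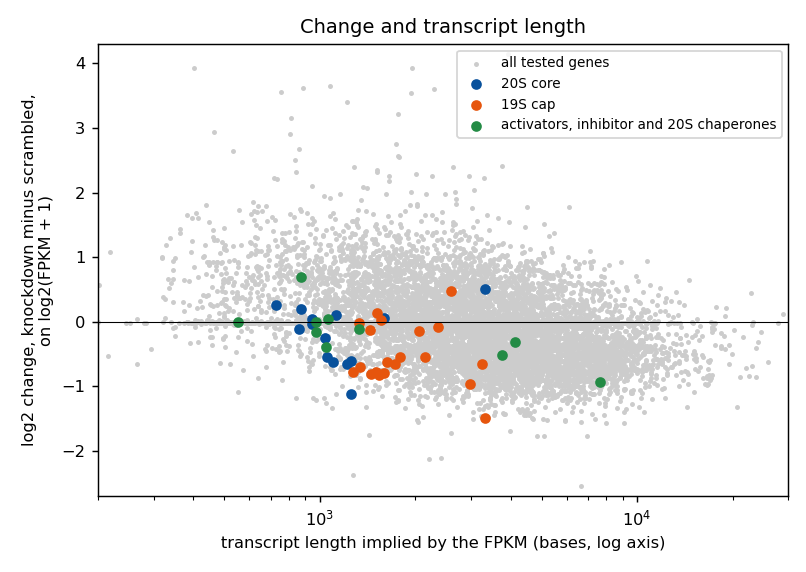
Log2 change (knockdown minus scrambled, on log2(FPKM + 1)) against the transcript length implied by the FPKM in bases on a log axis, for all tested genes (grey), the 20S core (blue), the 19S cap (orange) and the activators, inhibitor and 20S chaperones (green). Longer genes tend to lie lower (Spearman rho -0.39 across 8693 genes), and most core genes lie at short lengths.

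Several proteasome genes varied between replicates in a crossed way. For 9 of the 46 (19.6%), Psma7, Psmc4, Psmc6, Psmd1, Psmd4, Psmd5, Psmd8, Psmd13 and Psmg4, replicate 1 and replicate 2 were apart by more than 5 counting SDs in both groups with opposite signs. Across all genes with recovered fragments 1146 of 8683 did so (13.2%), and 1 gene was that far apart with the same sign in both groups. The shares are not like for like, because genes with more fragments reach 5 counting SDs at a smaller difference. The median counting SE was 0.014 for proteasome genes and 0.038 for all tested genes. Psmd4 differed by 26.4 counting SDs between scrambled 1 and 2 and by -27.7 between knockdown 1 and 2, and Psmg4 by -9.5 and 10.6. Of the 15 proteasome genes that did not pass the threshold, 8 were among these 9, and of the 37 others 30 were called. Replicates that far apart raise the SE of a gene, so this split follows largely from how the 9 were picked. In 8 of the 9 scrambled 1 was above scrambled 2 and knockdown 2 above knockdown 1, and Psmg4 had the opposite order. Psmd1 was the only one of the 9 that was called. The cause was not tested.

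**Figure D5:**
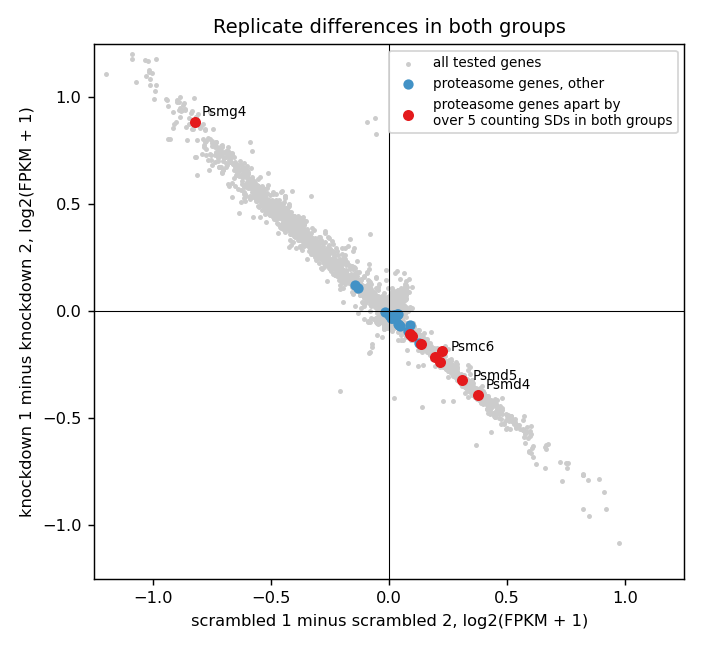
Replicate 1 minus replicate 2 on log2(FPKM + 1) in the scrambled (x axis) and knockdown libraries (y axis), for all tested genes (grey) and proteasome genes (blue, or red where both differences exceed 5 counting SDs). Genes lie along a falling diagonal, with Psmd4, Psmd5 and Psmc6 at the lower right and Psmg4 at the upper left; genes beyond the axis ends are not drawn.

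Genes that feed or regulate the proteasome were read from a list of 40 outside the naming rule, of which 38 were tested. Of these 21 were lower (55.3%, against 41.2% of all tested genes), 4 higher (10.5%, against 27.4%) and 13 not past, with a median log2 change of -0.45. The list for the VCP unfoldase, which extracts ubiquitinated proteins for the proteasome, holds Vcp and genes of its partners. All 6 were lower, and 5 of 6 after median centring or with the length trend taken out, where Faf2 lost its call (limma adjusted p of 0.16 and 0.87). Vcp stood at 181 and 178 FPKM against 82.4 and 83.6 FPKM (log2 change -1.10, limma adjusted p = 0.00016), and its cofactor Nploc4 at 48.5 and 48.8 FPKM against 20.4 and 20.8 FPKM (log2 change -1.20, limma adjusted p = 0.00016). Among 8 shuttle factors, which carry ubiquitinated proteins to the cap, 5 were lower and 1 higher. The ubiquilin Ubqln4 went from 57.3 and 56.9 FPKM to 27.1 and 27.7 FPKM (log2 change -1.03), and Ubqln1 from 59.6 and 58.8 FPKM to 29.7 and 30.2 FPKM (log2 change -0.96), both with limma adjusted p = 0.00016.

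Of the enzymes that work on ubiquitin at the cap, 2 of 4 were lower (50.0%, against 41.2% of all tested genes) and 2 did not pass. The ligase Ube3c went from 18.1 and 17.7 FPKM to 11.3 and 11.5 FPKM (log2 change -0.61, limma adjusted p = 0.00019). The deubiquitinase Usp14 went from 25.4 and 25.1 FPKM to 16.9 and 17.2 FPKM (log2 change -0.54, limma adjusted p = 0.00023). Subunits and assembly factors with other names gave 2 lower, 2 higher and 3 not past, and after quantile normalization 0 were higher (Pomp and Txnl1, limma adjusted p of 0.099 and 0.097). Ecpas, a proteasome adaptor, went from 4.01 and 3.97 FPKM to 2.46 and 2.50 FPKM (log2 change -0.52, limma adjusted p = 0.00019), and Akirin2, which imports proteasomes into the nucleus, from 57.2 and 56.8 FPKM to 43.4 and 44.2 FPKM (log2 change -0.37, limma adjusted p = 0.00053). Rps27a, which fuses ubiquitin to a ribosomal protein, went from 2743 and 2715 FPKM to 3649.9 and 3702 FPKM (log2 change 0.43, limma adjusted p = 0.00039), a call lost in at least 1 alternative (highest adjusted p 0.83).

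Transcription factors known to act on proteasome genes gave 5 lower (71.4%, against 41.2% of all tested genes), 0 higher (against 27.4%) and 2 not past of 7 tested. The count of higher genes depended on the scaling. It was 2 after median centring, 1 after quantile normalization and 2 with the length trend taken out, with 5 lower each time. Nfe2l2 stood at 20.3 and 20.1 FPKM against 11.0 and 11.2 FPKM (log2 change -0.81, limma adjusted p = 0.00016), and Nfya, a subunit of NF-Y, at 17.9 and 18.0 FPKM against 9.13 and 9.36 FPKM (log2 change -0.88, limma adjusted p = 0.00016). Nfe2l1, which raises proteasome genes when the proteasome is inhibited, stood at 27.7 and 30.0 FPKM against 32.8 and 30.8 FPKM (log2 change 0.14, limma adjusted p = 0.14) and was chosen after its values were seen. It passed as higher after median centring (log2 change 0.31, limma adjusted p = 0.008) and quantile normalization (0.19, limma adjusted p = 0.047). With the length trend taken out it also passed (0.43, limma adjusted p = 0.008).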

How the data were processed

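Polysome RNA of 4 libraries was analysed from a table of FPKM deposited by the authors, named as FPKM per the labels. Per the labels' protocols, messenger RNA was enriched on capture beads, fragmented by heat and made into cDNA libraries. The submitters' processing notes name GRCm38, mm10 and GRCm39 without a role, and for the aligner, counter, annotation and strandedness the choice is not given in these sources. The number of value columns not used was 0.

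Genes with a mean of at least 1 FPKM, 8750 of 18200, were tested on log2(FPKM + 1) with limma (version 3.58.1, under R 4.3.3, with eBayes set to trend, 2 libraries against 2, no batch term, two-sided), with Benjamini-Hochberg adjustment over all tested genes and a threshold of 0.05. A fold change is the ratio of mean FPKM, while a log2 change is on the log2(FPKM + 1) scale, which understates the change of low genes. No adjusted p was below 0.00016. Data were simulated for this comparison on 8739 genes, with counting error as the only noise. There 96 of 96 genes changed by 2-fold and 56 of 98 changed by 1.2-fold were called, and 5 of 8545 unchanged genes. Many genes of the real libraries varied by more than counting error, so these shares are not error rates for them.

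FPKM are whole fragments over length and depth, and low values gave relative depths of 1.0, 1.2145, 1.2252 and 1.1241 and whole fragments for 15872 genes (8693 of the tested, 99.3%, relative tolerance 3e-08). Lengths came out as whole bases for 15848 of these genes. In 5 simulated tables of all 18200 genes the depths were right and at least 99.99% of genes were recovered, while in 5 of 8 simulated subsets of 1500 genes a depth was wrong, so the method was used on the whole table only. Counting SDs and lengths come from these fragments and cover counting error only, since PCR copies are not independent molecules. For the median proteasome gene the counting SE on the log2 scale was 0.014.

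The replicate number is the batch in the labels, which pairs the libraries. As a check, the replicate differences of both groups correlated at r = -0.83 across 8750 genes. A shift shared by the libraries of a batch would give a positive value, so the batch block does not model these differences. Values within a batch and calls lost with batch as a block are given with that limit. Alternatives were other pseudocounts, filters and scalings, batch as a block, an SE not below counting error, the length trend taken out, and each library left out, where the spread comes from the other group's libraries and the trend over genes. Promoters came from RefSeq (GRCm38.p6), and motifs were searched on both strands. Plots used matplotlib 3.10.9, and tables pandas 2.3.3 with numpy 2.4.6, under Python 3.11.15.

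Every gene of the naming rule could be named. Values per library are given for the activators, the catalytic beta genes, and in each of the core, ATPase, non-ATPase and assembly groups the 3 highest and 3 lowest log2 changes, and from each outside list the 2 genes with the smallest p, apart from a gene not reported here. The members, lists and rules were chosen with earlier results of these data known.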

Additional observations from a re-analysis of the deposited data

How the results depend on the processing

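Of the 31 called proteasome genes, 24 kept their sign and their side of the threshold in all 13 alternatives (21 lower, 3 higher), and Psmb1, Psmb3, Psmb5, Psmb6, Psmd1, Psme1 and Psme3 did not. Over all genes, 3819 were higher with no filter on low values, and 1583 were higher and 2213 lower at a mean of at least 5 FPKM, where fewer genes were tested. After quantile normalization 3 proteasome genes were higher, 1 of them in the core, and 2 genes of the outside list, and the core's median was -0.27. With the length trend taken out 3 were higher, 1 core gene was higher and 11 lower, and the core's median was -0.34. Median centring gave 2 higher cap genes and 1 lower activator, and medians of 0.10 for the core and -0.46 for the cap. With no filter on low values the core's median was -0.03, with Psmb11 added. Among genes called before or after the change, log2 changes turned sign with the length trend taken out for Psmb3 (-0.06), Psmb4 (-0.21), Psmb5 (-0.08), Psmb6 (-0.11), Pomp (-0.01) and Fbxo7 (0.34) and came to 0.00 for Faf2, and turned after quantile normalization for Psmb6 (-0.03), and after median centring for Psme1 (0.01). Of proteasome genes called in neither, 4, 6 and 10 also turned sign under these settings. Leaving out 1 library gave 1 to 3 lower activators, with 1 when scrambled 1 was left out, and medians from -0.10 to -0.04 for the core and from -0.66 to -0.56 for the cap. With the replicate block 2205 genes were higher and 3417 lower, 1 activator was lower, and no other call among the proteasome genes changed than those of Psmb6, Psmd1, Psme1 and Psme3. With the pairing crossed, chosen after seeing the data, 2962 genes were higher and 4282 lower, with 10 proteasome genes higher, among them 2 cap genes and 1 activator. The cause of these shifts was not tested. Other pseudocounts, both filters and an SE not below counting error left all 46 calls as they were. Depth limited Psmb11, which had at most 1 fragment in a library.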

Other observations

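Other genes of the ubiquitin system had the crossed replicate pattern, named here after their values were seen. The ubiquitin activating enzyme Uba1 stood at 83.2 and 52.2 FPKM in the scrambled-labelled libraries and at 51.6 and 81.2 FPKM in the knockdown-labelled ones. Uba6, the second activating enzyme, stood at 2.61 and 1.34 FPKM against 1.27 and 2.73 FPKM. The ubiquitin gene Ubb stood at 1223 and 933 FPKM against 846 and 1114 FPKM. Sem1, a small subunit of the 19S cap with a name outside the rule, stood at 283 and 519 FPKM against 530.3 and 271 FPKM. None of these passed the threshold between the groups, with limma adjusted p from 0.73 to 1.0. Pomp, a chaperone of 20S assembly, was higher in the knockdown-labelled libraries, at 489 and 504 FPKM against 621 and 607 FPKM (log2 change 0.31, limma adjusted p = 0.0023), and its log2 change was -0.01 with the length trend taken out.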
